A study of Mus musculus with 6 samples.

Results

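The Zfp zinc finger genes are the protein-coding mouse genes whose symbol is Zfp followed by a number, here without Zfp36, which belongs to another family. They were chosen by a mean of at least 1 TPM (a level corrected for transcript length and library size) over the 6 libraries, and 277 genes of the 55487 listed met the rule, out of 364 such Zfp genes of any level. Just inside the limit stood Zfp93 at a mean of 1.00 TPM, Zfp558 at 1.14 and Zfp647 at 1.2, and just outside Zfp229 at 0.977, Zfp286 at 0.975 and Zfp11 at 0.888. The study compared naive CD4+ T cells, mature helper lineage cells that have not yet met antigen, prepared fresh from 2 organs of untreated wild-type C57BL6/J mice: the spleen (3 libraries) and the mesenteric lymph node, mLN (3 libraries). The sources used here do not give the age or sex of the mice, any pooling of animals or the sort of the naive cells. Of the 277 members, 274 passed the filter on low counts and were tested; Zfp969, Zfp972 and Zfp993 did not pass it.

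Most proteins of this family read DNA through arrays of Cys2His2 zinc fingers, short folds in which 2 cysteines and 2 histidines hold a zinc ion and a helix contacts a few bases. Many carry a KRAB box near their start, which binds the corepressor Trim28 and through it brings histone methylation and silencing, chiefly of endogenous retroviruses and other repeats. KRAB genes multiplied by tandem duplication and lie in clusters, while members without the box include activators, chromatin complex subunits and RNA-binding proteins.

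A KRAB box was found in the translated protein of 164 members and was not found in 113. The members carried a median of 11 finger motifs per protein, with 11.5 in KRAB members and 7 in the others, and the range over all members ran from 0 to 36. Transcripts of KRAB members had a median GC content of 44.0%, those of the other members 51.4%, and those of all genes tested 50.2%. Median transcript lengths were 2747 nt, 3038 nt and 2330 nt in the same order. Some members share long stretches with other genes: in 33 members over 10% of the 100-base words of their transcripts also occur in another gene, and 29 of these are KRAB members, so reads could be split between copies there.

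The libraries held between 13205499 and 20054205 expected counts. The 11 naive CD4+ T cell markers reported here, among them Cd4, Cd3e and Ccr7, were all detected; 6 fell and 3 rose in the mLN. Markers of myeloid and B cells were lower in the mLN: 8 of the 10 myeloid markers tested fell, with a summed level of 87.8 to 103 CPM in the spleen libraries and 28.3 to 35.3 CPM in the mLN libraries. Likewise 7 of 10 B cell markers fell, with sums of 509 to 545 CPM and 348 to 374 CPM, most of it from Ighm. Of 4 NK cell markers tested, Prf1 rose (0.46, adjusted p = 0.00135) and none was called lower. The sums were 45.9 to 53 CPM in the spleen and 57.6 to 72.7 CPM in the mLN, most of it from Prf1. Klrd1, Nkg7 and Gzma had log2 fold changes below 0 (-0.59, -0.90 and -1.30) and were not called. Neither CD8 T cell marker was called, and their sums of 16.1 to 17.8 CPM and 12.5 to 20.4 CPM overlapped. The part of these cells in the values below was not tested, and in bulk RNA fewer cells of a type and less RNA per cell cannot be told apart. The 5 erythroid markers reported here summed to at most 0.676 CPM in any library, and Hbb-bt was at 0 in every library.

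The calls in the 2 classes of Zfp gene lay mostly in opposite directions on the scale of CPM, counts corrected for library size. Among the 161 KRAB members tested, 29 were lower and 1 was higher in the mLN, with a median log2 fold change of -0.22. Among the 113 members without the box, 24 were higher and 8 lower, and their median was 0.09. Over all members this made 25 higher and 37 lower members and a median of -0.10, beside 16.1% of all genes tested called higher and 13.5% called lower at an adjusted p under 0.05, and a median of -0.01. As shares, 18% of KRAB members were lower and 0.621% higher, against 7.08% and 21.2% of the others. The difference between the classes was not itself tested. KRAB members were 13 lower and 6 higher with the trend on GC content removed, and 1 lower and 7 higher on log2(TPM + 1), both described below. Called changes were small, from -0.82 (Zfp386) to 1.03 (Zfp365) on the log2 scale. The number of lower members varied with the library left out: it was 18 without spleen library 1, 23 without spleen library 2 and 18 without mLN library 3, and among KRAB members 14, 18 and 14. As shares of all members tested, the counts of 18, 23 and 18 were 6.57%, 8.36% and 6.55%. Over all genes tested the share called lower fell too, from 13.5% to 10.46%, 10.28% and 12.01% in the same order. How much of the drop among members came from having fewer libraries was not tested.

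**Figure D1:**
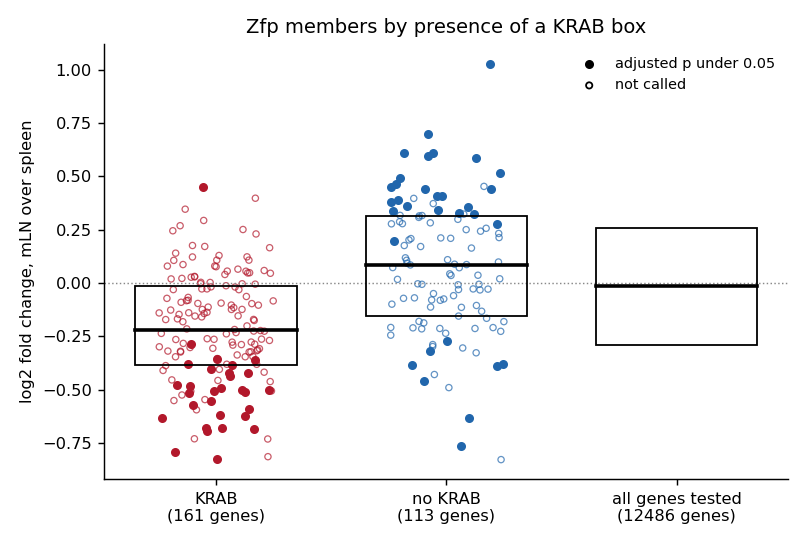
Log2 fold change (mLN over spleen) of each tested Zfp member, split by KRAB box; filled points passed an adjusted p of 0.05, boxes span the quartiles and thick lines mark the medians, with the box of all 12486 genes tested at the right. KRAB members lie mostly below 0 (median -0.22) and the others mostly above (median 0.09).

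Summed over its members, the KRAB class stood at 4212, 4107 and 3791 CPM in spleen libraries 1 to 3 and at 3793, 3721 and 3386 CPM in mLN libraries 1 to 3. The spleen libraries were higher on average, but spleen library 3 lay just below mLN library 1, so the groups overlapped. The class without the box stood at 5618, 5638 and 5738 CPM in the spleen and at 6113, 6124 and 6071 CPM in the mLN, and here the groups did not overlap. Summed TPM gave another picture. KRAB members had 1881 ± 74.3 TPM in the spleen and 1998 ± 124 TPM in the mLN (SD, n = 3 each), and members without the box 2213 ± 42 and 2718 ± 18.9 TPM. On this scale both means were higher in the mLN, though for KRAB members the groups overlapped, with mLN library 3 (1856 TPM) below spleen libraries 1 (1960 TPM) and 2 (1870 TPM). The log2(TPM + 1) of the median gene tested was shifted upward by 0.21.

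The largest cluster of KRAB genes lies on chromosome 13 (chr13:67038596-67827002, mm10), where genes whose starts lie within 500000 bases of the next were joined. It holds 18 members, all of them with a KRAB box. All 18 had a log2 fold change below 0, with a median of -0.42, and 6 were called lower: Zfp429, Zfp748, Zfp85, Zfp712, Zfp87 and Zfp595. Their sum was 353, 377 and 322 CPM in the spleen libraries and 273, 281 and 242 CPM in the mLN libraries, without overlap. The count of lower members was 3 without spleen library 1 or mLN library 3. With the trend on GC content removed, the median was -0.26 and 3 were lower. With the trend on length removed, the median was -0.46 and 7 were lower. These genes are related by sequence, and for Zfp708 and Zfp58 94.3% and 43.8% of the 100-base words occur in other genes, but for the 6 called genes at most 7.21%.

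The start regions of these genes are shown because most of the cluster shares one promoter element. ACTACANNTCC, read on either strand, is part of the element bound by the human counterpart of Zfp143, a member described further below. It occurred in 14 of the 16 promoters of the chromosome 13 cluster that were matched, among them all 5 of the called genes matched. The windows run from 250 bases before to 50 bases after the start site, are taken from RefSeq (GRCm38.p6, the assembly of mm10), and are written 5′ to 3′ on the gene's strand with the element in capitals (here in its reverse complement). They are Zfp748 (chr13:67553103-67553402, minus strand), Zfp429 (chr13:67399718-67400017, minus strand) and Zfp712 (chr13:67061121-67061420, minus strand). Zfp760 of chromosome 17 (chr17:21707491-21707790, plus strand) is added as a lower member of another cluster that lacks these letters.
Zfp748: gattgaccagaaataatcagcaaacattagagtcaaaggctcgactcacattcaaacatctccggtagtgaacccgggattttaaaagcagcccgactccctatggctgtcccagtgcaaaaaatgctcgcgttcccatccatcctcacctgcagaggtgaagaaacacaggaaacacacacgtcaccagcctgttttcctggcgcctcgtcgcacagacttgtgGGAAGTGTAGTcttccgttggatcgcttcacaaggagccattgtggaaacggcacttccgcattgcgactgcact
Zfp429: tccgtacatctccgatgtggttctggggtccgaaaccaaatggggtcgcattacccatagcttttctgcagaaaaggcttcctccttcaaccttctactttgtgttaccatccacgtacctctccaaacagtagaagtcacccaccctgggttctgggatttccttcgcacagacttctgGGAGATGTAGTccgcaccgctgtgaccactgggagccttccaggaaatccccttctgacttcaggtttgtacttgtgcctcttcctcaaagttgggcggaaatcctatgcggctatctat
Zfp712: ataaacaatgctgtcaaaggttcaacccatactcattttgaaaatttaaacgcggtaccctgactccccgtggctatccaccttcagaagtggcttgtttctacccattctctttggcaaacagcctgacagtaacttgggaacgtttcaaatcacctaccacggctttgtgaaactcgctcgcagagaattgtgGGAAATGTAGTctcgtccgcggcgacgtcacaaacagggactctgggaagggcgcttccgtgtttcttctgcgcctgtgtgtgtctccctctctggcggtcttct
Zfp760: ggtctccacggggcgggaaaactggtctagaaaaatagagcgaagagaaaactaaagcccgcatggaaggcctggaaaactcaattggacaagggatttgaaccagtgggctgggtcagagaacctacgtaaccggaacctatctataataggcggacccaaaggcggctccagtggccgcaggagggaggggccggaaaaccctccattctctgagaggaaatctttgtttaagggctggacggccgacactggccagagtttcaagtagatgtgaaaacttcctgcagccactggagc

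In all, 233 members were matched to a promoter, the first listed for each gene. The element occurred in 22.2% of 144 KRAB promoters and 12.4% of 89 promoters of the other members. Of the 32 KRAB promoters that held it, 14 lay in the chromosome 13 cluster. The KRAB share pools that cluster with the rest, so it does not describe the class outside that cluster. The element occurred in 5.08% of the 8925 matched promoters of genes tested and 2.15% of all 27025 promoters of the same length. Among KRAB members it stood in 22.2% of 27 promoters of members that were lower and in 22.8% of 114 promoters of members not called. Of the 6 lower KRAB members that held it, 5 lay in the chromosome 13 cluster. These 2 shares pool that cluster with the rest, so they do not show that the shares were alike outside it. Among members without the box, none of the 16 matched promoters of higher members held it, and 3 of the 7 matched promoters of lower ones did. The CCAAT box (CCAAT, either strand) occurred in 54.9% of KRAB promoters and 43.8% of the others, beside 39.3% of promoters of genes tested and 37.9% of all promoters. The GC box (GGGCGG) occurred in 38.2% of KRAB promoters and 58.4% of the others, both below the 64.5% of genes tested and above the 35.9% of all promoters. TATAAA occurred in 3.47% and 11.2%, beside 6.6% of genes tested and 14.2% of all promoters. These motifs were kept from a wider search of the promoters and are a description.

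On chromosome 17 a stretch with 18 members, 17 of them with a KRAB box (chr17:21008903-23599487), showed a like picture without the element, which was in none of its 16 matched promoters. There, 6 members were called lower (Zfp760, Zfp51, Zfp758, Zfp943, Zfp160 and Zfp945), none was higher, 15 had a fold change below 0 and the median was -0.35. With the GC trend removed the median was -0.16, with 3 lower and 1 higher. The sums were 469, 483 and 434 CPM in the spleen and 403, 376 and 337 CPM in the mLN, again without overlap, and the lower members numbered 3 without spleen library 2 and 2 without mLN library 3. A stretch of 14 members on chromosome 7, where 10 of 13 matched promoters held the element, had a median of -0.10 and 2 lower members, Zfp260 and Zfp146, neither with a KRAB box. A further stretch of chromosome 17 with 9 members, 8 of them with the box (chr17:32765496-33631779), had a median of -0.29 and 3 lower members, and 4 KRAB members on chromosome 7 (chr7:7114690-7209998) had a median of -0.44 and 2 lower. Other clusters made wholly of KRAB genes varied, with medians of -0.07 for the 6 tested members on chromosome 4, -0.14 for 5 members on chromosome 9 (chr9:20345136-20605409) and -0.30 for 5 members on chromosome 8 (chr8:69209038-69791178). Of clusters where KRAB genes were mixed with others, 9 members on chromosome 7 around Zfp574 (5 with the box) had a median of 0.09, and 8 members on chromosome 6 around Zfp777 (4 with the box), the one KRAB member called higher, a median of 0.17.

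**Figure D2:**
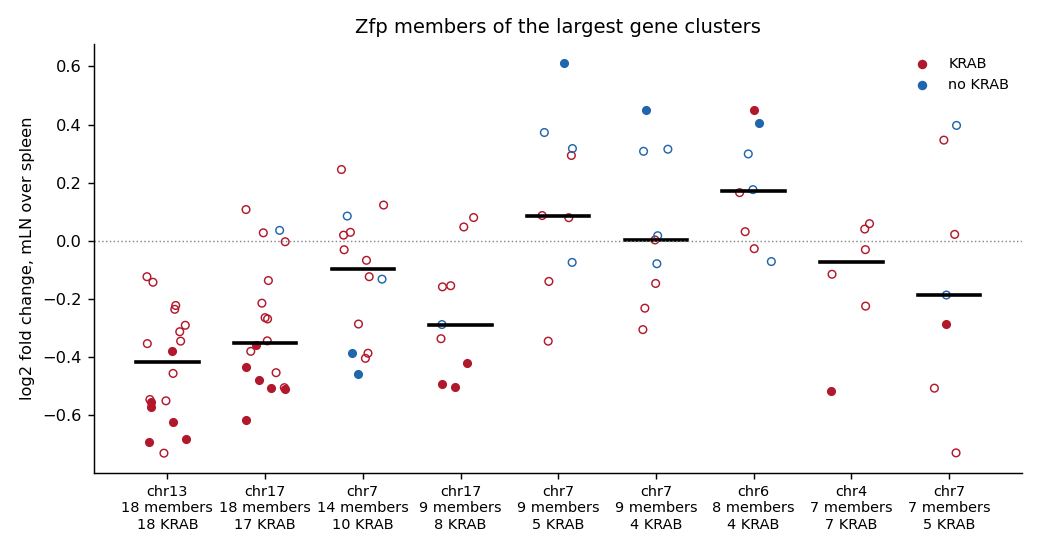
Log2 fold change (mLN over spleen) of the tested members of each Zfp gene cluster with at least 7 members; filled points passed an adjusted p of 0.05 and the lines mark medians. The chromosome 13 cluster lies wholly below 0, and the first chromosome 17 cluster lies below 0 for 15 of its 18 members.

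Zfp386, a KRAB member on chromosome 12 (chr12:116047724-116063360) with 9 finger motifs, fell the most. It was measured at 57.7, 55.5 and 49.4 CPM in the spleen libraries and at 32.7, 34 and 25.5 CPM in the mLN libraries. Every spleen library lay above every mLN library, and the log2 fold change was -0.82 ± 0.12 (SE; adjusted p = 1.73e-05). Zfp748, which with 23 motifs has the longest finger array of the called KRAB members, read 33.8, 49.9 and 34.5 CPM against 26.6, 23.6 and 23.1 CPM (-0.69 ± 0.14, adjusted p = 0.00077). Zfp931 on chromosome 2 read 15.1, 14.8 and 11.7 CPM against 7.61, 9.53 and 6.99 CPM (-0.79 ± 0.20, adjusted p = 0.00429). Both genes were separated without overlap, though Zfp748 varied more among the spleen libraries, where library 2 stood highest. All 3 kept their calls when any library was left out and when the length or GC trend was removed, while on median-centred log2(TPM + 1) the adjusted p of Zfp386 was 0.0518 and that of Zfp748 0.135.

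Of the other KRAB genes with large falls, Zfp825 (-0.68, adjusted p = 0.0264), Zfp719 (-0.68, adjusted p = 0.0206) and Zfp873 (-0.63, adjusted p = 0.011) lost the call when some single libraries were left out. Zfp825 lost the call without spleen library 1 (adjusted p = 0.148), mLN library 2 (0.0822) or mLN library 3 (0.118), or with the length trend (0.108) or GC trend (0.0746) removed, and 11.2% of its 100-base words occur in another gene. Zfp719 lost it without spleen library 2 (0.166) or mLN library 1 (0.0569), and Zfp873 without spleen library 1 (0.0548) or mLN library 1 (0.0512), or with the GC trend removed (0.0619). Zfp189, in which no KRAB box was found, read 6.44, 8.35 and 7.23 CPM in the spleen and 5.34, 4.2 and 3.47 CPM in the mLN, a fall of -0.76 ± 0.26 (adjusted p = 0.0321). Its level is low. With the GC trend removed its adjusted p was 0.0729, and it lost the call without spleen library 2 (adjusted p = 0.125), spleen library 3 (0.0541), mLN library 2 (0.0746) or mLN library 3 (0.124).

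**Figure D3:**
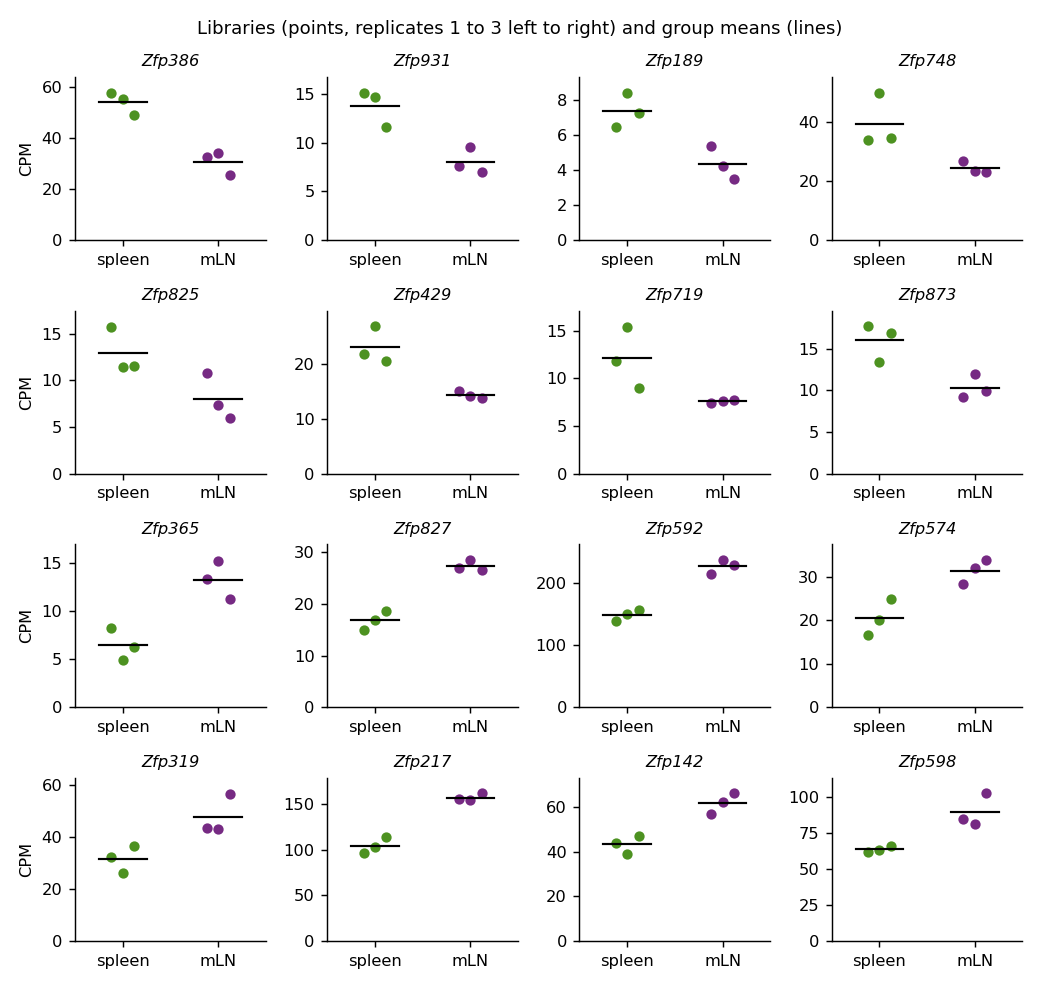
CPM of the 8 members with the largest falls (upper rows) and the 8 with the largest rises (lower rows) among called members; each point is 1 library, lines are group means and each axis starts at 0. In all 16 genes the spleen and mLN libraries do not overlap, as the rule that named them requires.

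Zfp365 rose the most. Its protein, known for a part in genome stability, holds no motif of the Cys2His2 form. It read 8.27, 4.94 and 6.29 CPM in the spleen and 13.3, 15.2 and 11.3 CPM in the mLN (chr10:67886103-67912662), a log2 fold change of 1.03 ± 0.22 (SE; adjusted p = 0.00118). The groups were apart and the call held without any 1 library, but on median-centred log2(TPM + 1) the adjusted p was 0.103. Zfp142, whose 36 motifs were the most of any called member, read 43.7, 39.1 and 46.9 CPM against 56.8, 62.5 and 66.2 CPM (0.52 ± 0.10, adjusted p = 0.000417). Zfp574 read 16.7, 20.1 and 25 CPM against 28.4, 32.1 and 33.9 CPM (0.61 ± 0.14, adjusted p = 0.00253). Zfp319 read 32.2, 26.1 and 36.6 CPM against 43.3, 43.0 and 56.5 CPM (0.59 ± 0.13, adjusted p = 0.00167), and its transcript is 7232 nt long. With the length trend removed the adjusted p of Zfp319 was 0.0583, while Zfp574 and Zfp142 stayed called.

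Of 9 tested members that are subunits or partners of chromatin complexes, 5 rose, none fell and the median was 0.38, beside 16.1% higher and 13.5% lower over all genes and 37.2% higher among genes of 4000 nt and longer. On median-centred log2(TPM + 1) 2 of the 9 were higher, beside 6.39% of all genes. Zfp592, a partner of a Zmynd8 complex with Zfp687, read 138, 150 and 156 CPM in the spleen and 213, 237 and 229 CPM in the mLN (0.61 ± 0.07, adjusted p = 1.14e-06). Zfp217, which acts with CtBP and Lsd1 corepressors, read 96.3, 103 and 114 CPM against 155, 154 and 162 CPM (0.59 ± 0.08, adjusted p = 5.76e-06). Zfp827, whose human counterpart recruits the NuRD complex to telomeres, read 14.9, 16.9 and 18.7 CPM against 26.9, 28.5 and 26.6 CPM (0.70 ± 0.14, adjusted p = 0.000474). In all 3 the groups did not overlap, and the calls held with any library left out and with either trend removed. Zfp451, a SUMO ligase, and Zfp609, a partner of the cohesin loader, also rose (0.38 and 0.44), but not with the length trend removed (adjusted p = 0.149 and 0.231). With that trend removed, 3 of the 9 rose and 1 fell, beside 14.4% and 9.19% of all genes.

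Among 11 members that bind RNA or act in translation, division or silencing of foreign DNA, 2 rose and 2 fell, with a median of -0.11. Over all genes tested, 16.1% were higher and 13.5% lower. Zfp598, the ubiquitin ligase that marks collided ribosomes, read 61.7, 63.4 and 66.2 CPM in the spleen and 84.8, 81.1 and 103 CPM in the mLN (0.49 ± 0.09, adjusted p = 0.000392). Zfp106, an RNA-binding protein needed in motor neurons and muscle, rose by less (0.28 ± 0.07, adjusted p = 0.00278), and with the length trend removed its adjusted p was 0.448. Zfp207, a spindle and splicing protein that binds Bub3, fell. It read 257, 237 and 249 CPM in the spleen and 193, 195 and 184 CPM in the mLN, without overlap (-0.38 ± 0.06, adjusted p = 0.000101). Zfp330, a nucleolar protein, fell by 0.32 ± 0.09 on the log2 scale (adjusted p = 0.0134), and lost the call without spleen library 1 (adjusted p = 0.0862) or mLN library 1 (0.0726) and with the length (0.162) or GC trend (0.156) removed.

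Of 7 members known for silencing retroelements or guarding imprints, 1 fell, none rose and the median was -0.32; over all genes 13.5% fell, so the count is near the background. The 1 was Zfp429, at 21.7, 26.8 and 20.4 CPM in the spleen and 15.0, 14.2 and 13.8 CPM in the mLN (-0.68 ± 0.15, adjusted p = 0.00154), which kept its call with each trend removed and on log2(TPM + 1). Zfp809, which recognises the primer binding site of retroviruses, had a log2 fold change of -0.32 (adjusted p = 0.12), and Zfp932, which binds endogenous retroviruses, -0.26 (adjusted p = 0.178, with 18.5% of its words shared with other genes). Zfp445, which guards imprinted genes, was level at 234, 233 and 220 CPM in the spleen and 246, 220 and 212 CPM in the mLN (-0.02 ± 0.07, adjusted p = 0.874).

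Of the 10 regulators of lymphocytes or growth, 1 rose and 1 fell, with a median of 0.09, beside 16.1% higher and 13.5% lower over all genes. Zfp335, which naive T cells need to accumulate, read 50.6, 62.4 and 61.1 CPM in the spleen and 72.3, 75.4 and 75.5 CPM in the mLN. The groups were apart (0.36 ± 0.09, adjusted p = 0.00517), but the call was lost without spleen library 1 (adjusted p = 0.0579) and with the length (0.0758) or GC trend (0.173) removed. The 1 that fell was Zfp189, described above, and Zfp131, which carries a BTB domain, had a log2 fold change of -0.21 (adjusted p = 0.0952). Among 6 activators that bind promoters, Zfp740 rose (0.20 ± 0.07, adjusted p = 0.0288) and none fell, beside the same 16.1% and 13.5% of all genes. Zfp740 lost the call with the length trend removed (adjusted p = 0.0759) and without spleen library 1 (adjusted p = 0.144), 2 (0.0573) or 3 (0.0643) or mLN library 2 (0.119). Zfp384 (0.20, adjusted p = 0.0975) and Zfp143 (-0.18, adjusted p = 0.133) did not pass. Zfp143 itself read 61.6, 61.3 and 62.3 CPM in the spleen and 54.5, 51.5 and 57.4 CPM in the mLN, without overlap.

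Per length, the 6 highest members were Zfp207, Zfp445, Zfp706, Zfp638, Zfp740 and Zfp330. Zfp207 led with 141 ± 7.77 TPM in the spleen and 124 ± 2.16 TPM in the mLN (SD, n = 3 each), above every other member in every library. Zfp445 had 87.4 ± 12 and 101 ± 2.48 TPM, Zfp638 81.9 ± 5.97 and 90.5 ± 4.79 TPM, and Zfp706, a small protein with a part in stem cell differentiation, 73.3 ± 11.3 and 105 ± 4.99 TPM. Zfp740 had 67.3 ± 3.15 and 93.2 ± 7.89 TPM, and Zfp330 64.4 ± 6.51 and 58.2 ± 3.16 TPM. In the mLN Zfp706 and Zfp445 each lay above Zfp638 in every library, while Zfp706 and Zfp445 overlapped each other, and Zfp740 overlapped all 3. Zfp638, which silences retroviral DNA with the HUSH complex, had a log2 fold change of -0.11 in CPM (adjusted p = 0.278), and Zfp706 one of 0.21 (adjusted p = 0.0666). In TPM Zfp706 and Zfp740 were higher in the mLN by 0.53 and 0.46 on the log2(TPM + 1) scale (adjusted p = 0.0126 and 0.00823), before the shift of 0.21 is taken off. Centred on that shift, neither was called (adjusted p = 0.144 and 0.139).

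Fold changes of the members moved with the GC content and length of their transcripts, as they did for all genes. Across the 274 members, the Spearman correlation of the log2 fold change with GC content was 0.52 and with length 0.29 (across genes, which are not independent replicates), against 0.30 and 0.37 over all genes tested. Within the GC bands, the share of KRAB members called lower was near that of all genes: 25% of 60 members below 42% GC against 20.4% of all genes in the band, 9 of 45 (all genes 19%) between 42% and 46%, 12.5% of 32 against 16.4% between 46% and 50%, and 4.17% of 24 against 9.19% from 50% upward. The share called higher was 0 in the first 3 bands, where all genes had 3.81%, 7.76% and 12.5%, and 4.17% against 22.7% from 50% upward. Members without the box had 30.3% of 66 called higher and none lower from 50% GC upward. At lower GC their values were lower: between 42% and 46%, 23.8% of 21 were lower and 1 was higher, with a median of -0.18, and below 42% the 8 members had a median of -0.15 and no call. Between 46% and 50%, 3 of 18 were higher and 3 lower.

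Bands of length gave other values. Under 2000 nt, 20.7% of 29 KRAB members were lower, near the 21.7% of all genes. Between 2000 and 4000 nt, 17.3% of 110 KRAB members were lower against 9.56% of all genes, and from 4000 nt upward 18.2% of 22 against 3.90%. In the same longest band 46.9% of 32 members without the box were higher, beside 37.2% of all genes.

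**Figure D4:**
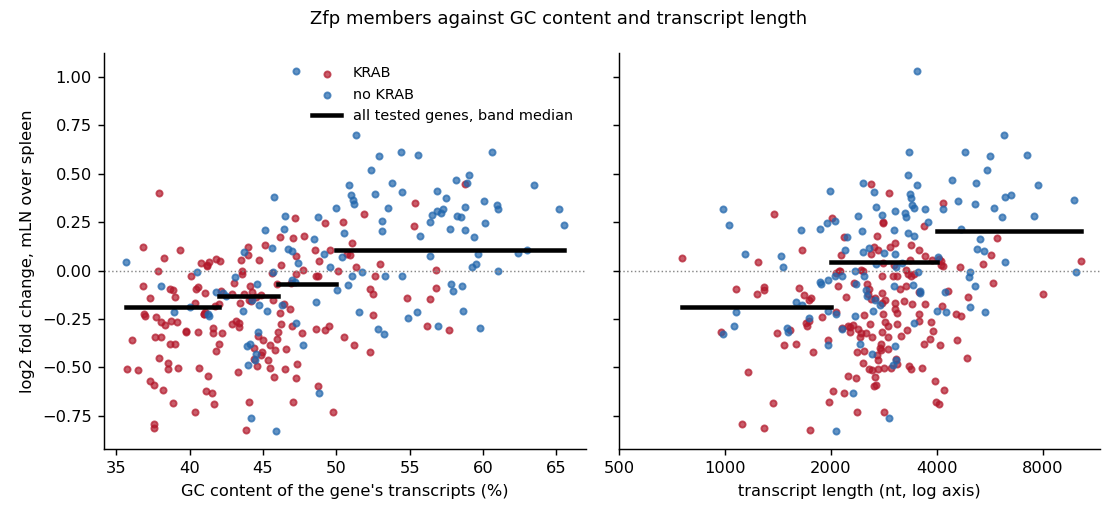
Log2 fold change (mLN over spleen) of each tested member against the GC content (left) and length (right, log axis) of its transcripts; thick lines are the medians of all genes tested in each band. The band medians rise from -0.19 to 0.11 with GC content and from -0.19 to 0.21 with length.

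With the length trend removed in the fit of all genes, 14 members were higher and 39 lower (14.4% and 9.19% of all genes), 28 of the lower ones in the KRAB class. Of the 25 members called higher at first, 13 remained, and of the 37 lower, 31. The members without the box were then 13 higher and 11 lower, and long genes such as Zfp106, Zfp236, Zfp831, Zfp451, Zfp507 and Zfp609 were no longer called. With the GC trend removed, 36 members were higher and 17 lower (21.1% and 11.8% of all genes), and of the 25 and 37 called at first 20 and 16 remained. KRAB members were then 6 higher and 13 lower with a median of -0.05, beside 0.04 for all genes.

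On the TPM scale, 40 members were higher and 1 lower (22.1% and 3.08% of all genes), and the 1 lower was Zfp429. After centring each library on its median, 6 were higher and 8 lower (6.39% and 7.58% of all genes); KRAB members were 0 and 6, and the others 6 and 2. Of the 16 members named for the largest changes, 5 were called on this scale (Zfp931, Zfp429, Zfp592, Zfp217 and Zfp598) and 11 were not. The medians of the centred values were -0.19 for KRAB members, 0.06 for the others and -0.04 for all genes tested. The order of the classes was the same on each scale, but the sign of the KRAB median was not: it was 0.06 on uncentred log2(TPM + 1), where the median of all genes was 0.21.

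**Figure D5:**
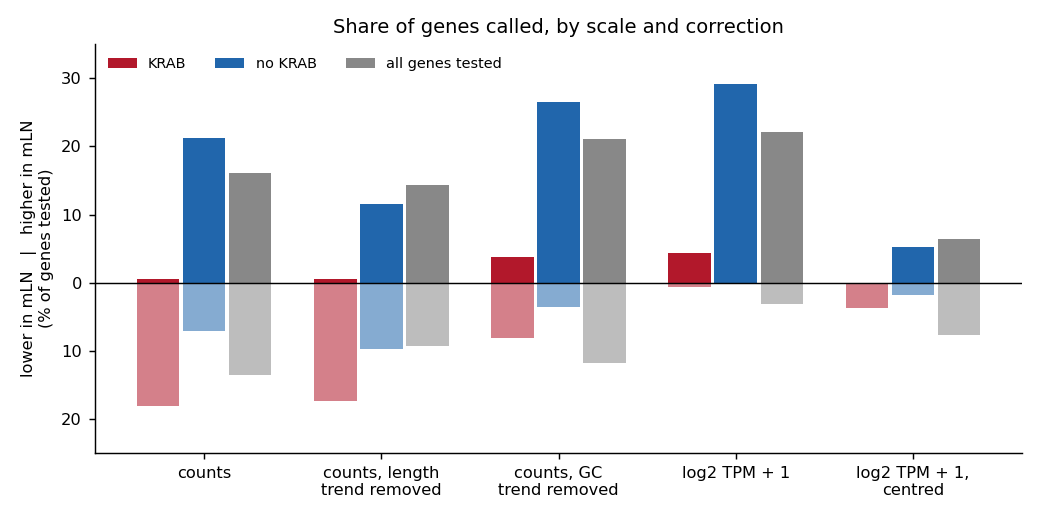
Share of tested genes called higher (upward bars) and lower (downward bars, paler) in the mLN among KRAB members, members without the box and all genes, by scale and correction. KRAB members have the smallest share of higher calls in all 5 sets of bars.

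The partners of the KRAB box and other zinc finger families give the setting. Among 22 genes of the KRAB corepressor machinery the median was 0.20, and 11 were higher and 2 lower, beside the same 16.1% and 13.5% of all genes. The counts were 8 and 1 after removal of the length trend (14.4% and 9.19% of all genes). They were 12 and 0 after removal of the GC trend (21.1% and 11.8% of all genes). The scaffold Trim28, chosen for mention after its value was seen, read 169, 181 and 190 CPM in the spleen and 242, 231 and 279 CPM in the mLN (0.48 ± 0.07, adjusted p = 4.42e-05). The remodellers Chd4 (0.58, adjusted p = 8.7e-08) and Chd3 (0.46, adjusted p = 2.35e-06) and the DNA methyltransferase Dnmt1 (0.60, adjusted p = 1.24e-06) also rose. The 2 that fell were Resf1 and Cbx1, and without spleen library 1, spleen library 2 or mLN library 1 the count of lower genes was 1. Cbx1 lost the call in those fits (adjusted p = 0.142, 0.0616 and 0.103) and also without mLN library 2 (0.122). Of the higher genes, Setdb1, Cbx5 and Fam208a each lost the call without any 1 spleen library or without mLN library 2. The other higher genes kept it with any library left out. On median-centred log2(TPM + 1) 7 were higher and 0 lower, beside 6.39% and 7.58% of all genes.

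BTB zinc finger genes counted 8 higher and none lower of 39 (median 0.19), beside 16.1% higher and 13.5% lower over all genes tested. On median-centred log2(TPM + 1) 1 of these BTB genes was higher, beside 6.39% of all genes. Those at the smallest p were Zbtb40 (0.61, adjusted p = 9.79e-05), Zbtb22 (0.40, adjusted p = 0.00697) and Zbtb17 (0.41, adjusted p = 0.0154). Without spleen library 1 or mLN library 1 the count was 5, without mLN library 2 it was 3 and without spleen library 2 it was 2. Zbtb22 lost the call without spleen library 2 (adjusted p = 0.0539) and with the GC trend removed (0.218), and Zbtb17 without spleen library 2 (0.133) or mLN library 3 (0.0665) and with that trend removed (0.132). Of 19 SCAN zinc finger genes, Zscan20 rose (0.60, adjusted p = 0.00227), Zkscan14 fell (-0.49, adjusted p = 0.00907) and Zkscan17 did not pass (0.32, adjusted p = 0.0619). Of 20 Ikaros, KLF and SP factors, 5 rose and 3 fell, led by Ikzf1 (0.42, adjusted p = 5.63e-06), Klf13 (0.49, adjusted p = 7.71e-06) and Klf6 (-0.45, adjusted p = 7.6e-05). Counts of the SCAN genes and of these factors stand beside the same 16.1% higher and 13.5% lower over all genes.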

How the data were processed

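Polyadenylated RNA was measured in naive CD4+ T cells from the spleen and the mesenteric lymph node (mLN), 3 libraries each. Per the submitters' processing notes, the tools were STAR and RSEM and the build was mm10. Versions, annotation release and strand setting: not given in the sources used here. Per the file headers, expected counts are the authors' estimated reads per gene, and they are not normalized. As deposited, TPM is a transcript level scaled to a fixed total that the authors corrected for effective length. Transcript length was deposited in nucleotides. The totals of expected counts per library ran from 13205499 to 20054205, and 3 counts corresponded to 0.149 to 0.225 CPM (TMM-scaled counts relative to library size).

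Expected counts were rounded, filtered with filterByExpr and scaled by TMM factors. The test was edgeR's (version 4.0.16) two-sided robust quasi-likelihood F test over 12486 genes, with Benjamini-Hochberg adjustment over all of them called at 0.05. A positive log2 fold change means a higher level in the mLN. Length and GC trends were removed by a loess curve (span 0.3) for each library, entered as an offset. The curve was fitted to each gene's log2 CPM minus its mean over all libraries. TPM was tested as log2(TPM + 1) with limma 3.58.1; such fold changes understate those of low genes. Other tools were DESeq2 1.42.0 and voom. The edgeR test, plain and with the length trend removed, was checked on simulated counts. The labels do not say whether the libraries came from separate mice, so the spread behind each p-value may be technical. Counts of paired libraries of 1 tissue differed by a chi-square of 5.59 to 11.8 per degree of freedom, so no library was a copy of another.

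Symbols were found for 55227 of 55487 identifiers in GENCODE vM21 and a mouse gene-name table. Proteins were translated from the longest coding transcript of vM21, in place of the RefSeq proteins the plan named, which were not used here. A zinc finger was the motif of 2 cysteines 2 to 4 residues apart, 12 residues, and 2 histidines 3 to 5 residues apart. A KRAB box was called where at least 14 of 20 conserved positions matched. Members said to be without the box are those where none was found in this way. Members, lists and the KRAB split were chosen with earlier results of these data known. Of the marker lists, 2 genes are not reported here and were left out of the counts and sums. Genes were named by rule: the 8 called members with the largest fold change each way (mean of at least 5 CPM, no overlap of libraries), the 6 of highest TPM, up to 3 of smallest p per list, 3 on each side of the TPM limit, and the called members with most and fewest fingers. Others were chosen after their values were seen.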

Additional observations from a re-analysis of the deposited data

How the results depend on the processing

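Counts and medians below are given for the mLN against the spleen. Library scaling (RLE factors), DESeq2, voom, no filter, a stricter filter, other TPM limits for membership and leaving out mitochondrial and ribosomal genes kept every count of members within 1.5 times its value and every median's sign. Upper-quartile factors moved the median of members without KRAB to 0.039. On log2(TPM + 1), with 40 members higher and 1 lower, the medians were 0.15 for all members, 0.059 for KRAB members (7 higher, 1 lower) and 0.31 for the others (0 lower); with a pseudocount of 0.1 the counts were the same 40, 1, 7, 1 and 0 and the medians 0.16, 0.065 and 0.34. On centred log2(TPM + 1) there were 6 higher and 8 lower, of which KRAB members 0 and 6 and the others 6 and 2. Removing the length trend left 14 members higher, 13 of them without KRAB (median 0.028). Removing the GC trend left 17 lower, with KRAB members 6 higher and 13 lower (median -0.052), the others 4 lower and a median of 0.011 over all members. An offset of effective lengths gave 16 higher and 12 lower, KRAB members 0 and 9, the others 3 lower. As shares of members the 16 and 12 were 5.84% and 4.38%, beside 9.44% and 7.40% of all genes in the same fit. At an adjusted p under 0.01, 14 members were lower, 11 with KRAB and 3 without. The cause of these differences was not tested.

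Leaving out 1 library at a time gave 18 to 28 members higher and 18 to 44 lower, with medians of -0.14 to -0.07; for KRAB members 1 higher in each case and 14 to 34 lower (-0.26 to -0.17), and for the others 17 to 27 higher and 4 to 10 lower (0.06 to 0.12). Over all genes tested, the same fits called 11.6% to 15.3% higher and 10.3% to 13.3% lower. The labels do not say whether same-numbered libraries are paired. Deviations of same-numbered libraries correlated at 0.0223, 0.0023 and 0.0652. Spleen libraries 1 and 3 correlated best with the mLN library of the same number, and spleen library 2 with mLN library 1 (0.0238). Correlations this small, over 3 libraries per tissue, cannot decide whether the libraries are paired. With the replicate block, 32 members were higher and 49 lower, or 11.7% and 17.9%. Over all genes tested the shares with the block were 20.6% and 17.1%, also above those of the main fit. With the block and the length trend removed 23 members were higher and 54 lower, of which 15 lower without KRAB (median 0.042). These counts were 8.39% and 19.7% of members, beside 18.9% and 13.6% of all genes.

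Of 902 values of named genes under these alternatives, 758 kept direction and side of the threshold, 102 lost the call, 28 gained one and 14 changed sign. On log2(TPM + 1), and with a pseudocount of 0.1, Zfp131 was 0.080 and 0.082, Zfp932 0.23 and 0.24, Zfp143 0.042 and 0.043, Zfp445 0.22 and 0.22, and Zfp638 0.14 and 0.14. Zfp932 was 0.025 with the effective-length offset. With the GC trend removed Zfp445 was 0.10 and Zfp638 0.086, and leaving out 1 library put Zfp445 between -0.086 (without mLN replicate 1) and 0.017 (without mLN replicate 3). None of these named genes was called at first. Among all members called at first, named or not, 2 changed sign on log2(TPM + 1) and 2 with a pseudocount of 0.1. A gene of few counts needs a larger change to pass: of members between 1 and 5 TPM, 1 of 44 with KRAB and 3 of 24 without were called. Over all genes tested in that band, 4.43% were called higher and 4.25% lower.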
